A study of Mus musculus with 10 samples.

Results

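Feedback inhibitors and target genes of the Wnt pathway were followed across 3 kinds of mouse cell. The list named 10 genes, Axin2, Lgr4, Lgr5, Rnf43, Znrf3, Dkk1, Sfrp1, Lef1, Tcf7 and Notum, and 9 of them had a transcript cluster with exactly 1 gene symbol in the platform annotation. Tcf7 had none and was not analysed here. For a gene with several such clusters, the one with the highest mean over the 10 arrays was used. These 9 genes are part of 22180 genes tested in the same way.

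RNA was hybridised to 10 expression arrays: 4 of undifferentiated embryonic stem cells (mESC), 3 of hepatocyte-like cells obtained by differentiating embryonic stem cells (ES_HLC) and 3 of hepatocytes from adult liver (Ad_Hep). All 10 samples, controls included, are labelled with the same transgenic strain, which expresses luciferase and GFP from CAG, a promoter active in nearly all cells. The labels also put every sample, the adult hepatocytes included, below passage 20, and give neither the age of the animals nor the differentiation protocol. They call the replicates biological without saying whether these came from separate cultures or animals, so p-values measure only the spread between these samples.

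Wnt proteins bind Frizzled receptors and the co-receptors Lrp5 and Lrp6, which stops a cytoplasmic destruction complex from degrading beta-catenin. Beta-catenin then enters the nucleus and acts with TCF/LEF transcription factors on target genes, several of which feed back on the pathway. In adult liver the pathway is known for maintaining the gene expression of hepatocytes around the central vein, and in mouse embryonic stem cells for favouring self-renewal.

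The labelled cell kinds were checked against their markers. In mESC 9 of 10 pluripotency markers had a mean of at least 5.5 on the log2 scale, the level below which a gene was treated as dim, and in Ad_Hep all 12 hepatocyte markers did. In ES_HLC 7 of 12 hepatocyte markers and all 7 fetal liver markers did, but so did 11 of 12 markers of stellate cells and fibroblasts, all but Lrat, an enzyme of retinol storage in stellate cells, 8 of 9 markers of extraembryonic endoderm and 4 of 5 of cholangiocytes. ES_HLC replicate 3 stood apart: its mean over the hepatocyte markers was 7.05 against 5.5 and 5.89 in replicates 1 and 2, and its mean over the stellate and fibroblast markers was 7.84 against 9.41 and 8.59. Of the 7 hepatocyte markers counted, Alb (4.852, 5.145 and 10.803) and Cyp2e1 (5.21, 5.335 and 6.826) were dim on replicates 1 and 2. Not every hepatocyte marker followed, since Ttr, Apoa1 and Hnf4a were lowest on replicate 3. Its mean over the pluripotency markers was also the highest of the ES_HLC arrays, at 5.44 against 4.91 and 4.83. In Ad_Hep all 10 endothelial markers were at or above the dim level (array means of 7.84 to 7.94 against 5.45 to 5.72 in mESC), as were 6 of 9 macrophage, 9 of 12 stellate and fibroblast and 8 of 9 extraembryonic endoderm markers. Some markers of these lists reached that level in mESC too: 4 endothelial, 2 macrophage, 4 stellate and fibroblast and 6 extraembryonic endoderm markers. So did 4 of 12 hepatocyte, 5 of 7 fetal liver and 2 of 5 cholangiocyte markers in mESC, and 4 of 7 fetal liver markers in Ad_Hep. In mESC, 51.8% of all genes tested had replicates 1 and 3 both above or both below replicates 2 and 4. Some genes would split this way with the arrays in random order, and that share was not subtracted. In such bulk samples fewer cells of a type and less RNA per cell cannot be told apart.

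Between ES_HLC and mESC 2 of the 9 members were higher and 3 lower, where 8.61% of all genes were called higher and 7.35% lower (16.0% in either direction). A gene is called here, and said to have risen or fallen, when limma gave it an adjusted p under 0.05 (Benjamini-Hochberg, all tested genes) and its log2 difference is at least 1 either way. Where a group is dim, the size of a difference depends on the background level. Between Ad_Hep and mESC 2 members were higher and 3 lower, against 11.0% and 15.6% of all genes (26.6% in either direction). Between ES_HLC and Ad_Hep 3 were higher and 4 lower, against 13.9% and 9.12% (23.0% in either direction). The median difference of the members was -0.35, -0.39 and 0.11 in these 3 comparisons, beside -0.01, 0.05 and -0.04 over all genes. Nothing particular to the list is read from these counts, and each pair of comparisons shares a group of arrays. Under cyclic loess scaling the share of called genes that were higher was 53.6% in place of 41.5% for Ad_Hep against mESC and 49% in place of 60.4% for ES_HLC against Ad_Hep.

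Dkk1 had the largest called rise and Axin2 the largest called fall among the members in ES_HLC against mESC, and the 250 bases before a RefSeq transcription start of each are shown because both are textbook targets of TCF/LEF factors. The windows are from GRCm38.p6, chr11:108920099-108920348 on the plus strand for Axin2 and chr19:30549497-30549746 on the minus strand for Dkk1, written 5′ to 3′ on the strand of the gene.
Axin2: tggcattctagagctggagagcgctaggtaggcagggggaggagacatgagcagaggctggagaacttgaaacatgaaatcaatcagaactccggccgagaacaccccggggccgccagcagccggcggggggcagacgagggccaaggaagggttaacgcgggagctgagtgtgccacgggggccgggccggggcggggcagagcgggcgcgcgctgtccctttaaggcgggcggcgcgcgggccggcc
Dkk1: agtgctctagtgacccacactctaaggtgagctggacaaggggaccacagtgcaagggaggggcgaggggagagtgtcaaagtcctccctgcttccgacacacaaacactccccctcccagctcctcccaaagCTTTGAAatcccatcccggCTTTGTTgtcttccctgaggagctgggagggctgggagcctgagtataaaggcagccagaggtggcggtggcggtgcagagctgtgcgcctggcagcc
Capitals mark any of 4 words, forms of the TCF/LEF consensus, on either strand: the word CTTTGAT, the word CTTTGAA, the word CTTTGTA and the word CTTTGTT. Dkk1 held 2 such words, CTTTGAA with its first base at position -117 from the start and CTTTGTT at position -98, and Axin2 none. Of 32851 windows of this length 14.8% held at least 1 of the 4 words and 1.43% held 2 or more. Among the 11 windows listed for the genes of this list, 2 held any of the words. They were the Dkk1 window and a Lef1 window with TACAAAG, which is CTTTGTA on the other strand. CTTTGAT alone, the motif chosen first, was in 3.21% of all windows and in none of the 11 windows listed for Axin2, Dkk1, Lef1, Lgr4, Rnf43 and Tcf7, and the other 3 words were added after the sequences had been seen. No window was listed for Lgr5, Znrf3, Sfrp1 and Notum. A match is a run of letters and says nothing about binding in these cells.

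**Figure D1:**
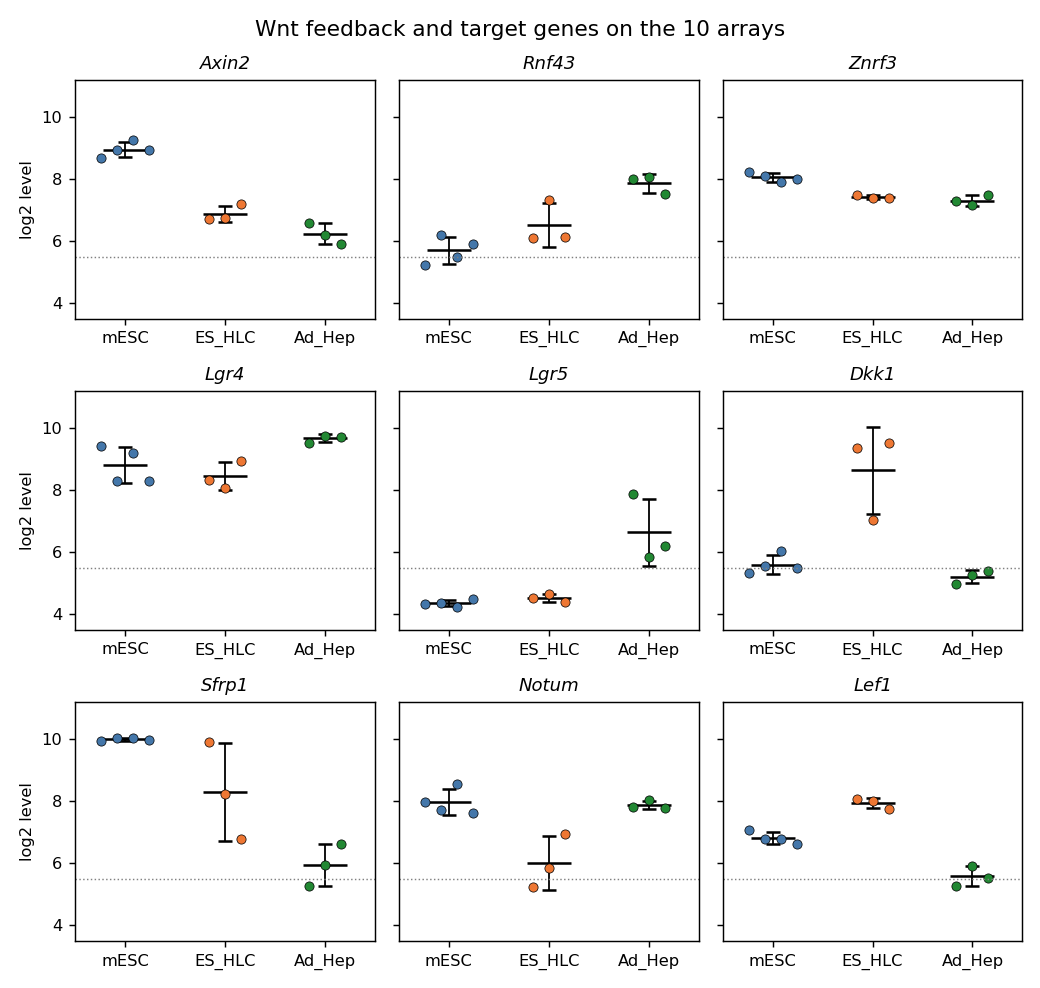
Log2 level (vertical axis) of the 9 members on each array, with 4 mESC, 3 ES_HLC and 3 Ad_Hep points per panel, the group mean as a bar and the SD as whiskers. The dotted line marks 5.5, below which a gene was treated as dim. Axin2 is at 8.67 to 9.27 in mESC and at most 7.18 elsewhere, Dkk1 is at least 7.02 in ES_HLC and at most 6.02 elsewhere, and Lgr5 is above the line only in Ad_Hep.

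Axin2 encodes a scaffold of the destruction complex that is itself induced by beta-catenin, and it is the most widely used reporter of pathway activity. It read 8.67, 8.92, 9.27 and 8.95 on the mESC arrays, 6.71, 6.75 and 7.18 on the ES_HLC arrays and 6.59, 6.18 and 5.91 on the Ad_Hep arrays. All 4 mESC arrays lay above all other arrays, and each ES_HLC array lay above each Ad_Hep array. Axin2 fell by 2.07 ± 0.21 (log2 difference ± SE from the fit) in ES_HLC against mESC, a 4.2-fold difference (limma, adjusted p = 9.36e-06). It was lower by 6.6-fold in Ad_Hep than in mESC, with a log2 difference of -2.72 ± 0.21 (adjusted p = 2.28e-07). ES_HLC exceeded Ad_Hep by 0.65 ± 0.22 (adjusted p = 0.0346), short of a log2 difference of 1 and therefore not called. A dimmer second Axin2 cluster had the same direction against mESC but smaller differences. They were -0.88 for ES_HLC (adjusted p = 0.00477) and -0.65 for Ad_Hep (adjusted p = 0.0183), both short of 1 and therefore not called. That cluster gave -0.22 for ES_HLC against Ad_Hep (adjusted p = 0.462). The sign of that last difference was opposite in the 2 clusters, and it was called in neither.

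Rnf43 and Znrf3 are transmembrane ubiquitin ligases that remove Frizzled receptors from the cell surface, and both are targets of the pathway they restrain. Rnf43 was highest in Ad_Hep and Znrf3 in mESC. Rnf43 read 5.22, 6.20, 5.49 and 5.91 in mESC, 6.10, 7.34 and 6.14 in ES_HLC and 8.0, 8.07 and 7.51 in Ad_Hep. All 3 Ad_Hep arrays were above all others, while the ES_HLC arrays overlapped those of mESC, with replicate 2 the highest of its kind. Rnf43 was 4.46-fold higher in Ad_Hep than in mESC (2.16 ± 0.31 on the log2 scale, adjusted p = 8.82e-05) and was lower in ES_HLC than in Ad_Hep (-1.34 ± 0.34, adjusted p = 0.00699). Between ES_HLC and mESC the difference of 0.82 ± 0.31 was not called (adjusted p = 0.0723, 95% interval 0.14 to 1.5). It was called without ES_HLC replicate 1, at 1.03 (adjusted p = 0.0438), and was 0.41 without replicate 2 (adjusted p = 0.339).

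Znrf3 stayed within a narrow range. It read 8.21, 8.11, 7.89 and 8.01 in mESC, 7.49, 7.39 and 7.38 in ES_HLC and 7.29, 7.15 and 7.48 in Ad_Hep. The mESC arrays were above all others and the hepatic kinds overlapped. The difference from mESC was -0.64 ± 0.15 in ES_HLC (adjusted p = 0.00554) and -0.75 ± 0.15 in Ad_Hep (adjusted p = 0.00108), both under the minimum difference, so Znrf3 was not called in any comparison. Under cyclic loess scaling the Ad_Hep value was -0.35 (adjusted p = 0.103). ES_HLC and Ad_Hep differed by 0.11 ± 0.16 (adjusted p = 0.640, 95% interval -0.24 to 0.46).

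Lgr4 and Lgr5 are receptors for R-spondins, secreted proteins that lift the brake set by Rnf43 and Znrf3. Lgr4 was well above the dim level on every array. It read 9.41, 8.30, 9.21 and 8.30 in mESC, 8.34, 8.08 and 8.95 in ES_HLC and 9.52, 9.76 and 9.73 in Ad_Hep. Ad_Hep lay above every other array, and the mESC arrays fell into a high pair, replicates 1 and 3, and a low pair that ES_HLC overlapped. Lgr4 was lower in ES_HLC than in Ad_Hep by 2.32-fold (-1.21 ± 0.31, adjusted p = 0.00793). Ad_Hep against mESC gave 0.86 ± 0.29 (adjusted p = 0.0308), not called, although it was called without mESC replicate 1 (1.06, adjusted p = 0.00908) and under cyclic loess (1.36, adjusted p = 0.00176). ES_HLC against mESC gave -0.35 ± 0.29 (adjusted p = 0.449, 95% interval -0.99 to 0.28).

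Lgr5, a marker of Wnt-responsive stem cells in several epithelia and of pericentral hepatocytes, was above the dim level only in adult hepatocytes. It read 7.88, 5.85 and 6.20 in Ad_Hep, against 4.51, 4.65 and 4.39 in ES_HLC and 4.34, 4.35, 4.25 and 4.48 in mESC. All Ad_Hep arrays were above all others, and replicate 1 was far above replicates 2 and 3. Lgr5 was higher in Ad_Hep than in mESC by 2.29 ± 0.36 (adjusted p = 1.70e-04) and lower in ES_HLC than in Ad_Hep (-2.13 ± 0.39, adjusted p = 7.27e-04). Without Ad_Hep replicate 1 the first of these was 1.67 (adjusted p = 9.55e-06). All mESC and ES_HLC arrays were dim, so these sizes depend on the background level and are not measured ratios. mESC and ES_HLC differed by 0.16 ± 0.36 (adjusted p = 0.812). A second Lgr5 cluster was dim in all 3 kinds, with means of 4.33, 4.09 and 4.54 in mESC, ES_HLC and Ad_Hep, and was not called in any comparison (adjusted p = 0.309, 0.323 and 0.0516 for ES_HLC against mESC, Ad_Hep against mESC and ES_HLC against Ad_Hep). Endothelial markers were also higher in Ad_Hep, and their mean there was lowest on replicate 1 (7.84 against 7.94 and 7.89), where Lgr5 was highest, and their part in the Lgr5 values was not tested.

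Dkk1 is a secreted antagonist that occupies Lrp5 and Lrp6, and among the members it showed the largest rise in hepatocyte-like cells. It read 9.37, 7.02 and 9.52 in ES_HLC, 5.33, 5.55, 6.02 and 5.49 in mESC and 4.97, 5.26 and 5.40 in Ad_Hep. Each ES_HLC array was above all 7 others, with replicate 2 well below replicates 1 and 3. Dkk1 rose by 3.04 ± 0.47 over mESC (adjusted p = 3.07e-04) and was higher than in Ad_Hep by 3.43 ± 0.50 (adjusted p = 1.24e-04). It was dim on 2 of 4 mESC and all 3 Ad_Hep arrays, so neither difference is a measured ratio of transcript. Without ES_HLC replicate 3 the rises were 2.60 (adjusted p = 0.00154) and 2.99 (adjusted p = 5.97e-04). Ad_Hep and mESC overlapped near the dim level, with a difference of -0.39 ± 0.47 (adjusted p = 0.564).

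Sfrp1 encodes a secreted Frizzled-related protein that can bind Wnt proteins. Its levels were even in mESC, at 9.94, 10.05, 10.03 and 9.97, and lower in Ad_Hep, at 5.27, 5.93 and 6.62. In ES_HLC they were spread between these, at 9.91, 8.22 and 6.77 in replicates 1, 2 and 3. No ES_HLC array reached the lowest mESC array, but replicate 1 came close to it and replicate 3 lay close to the highest Ad_Hep array. Sfrp1 was 16.7-fold lower in Ad_Hep than in mESC (-4.06 ± 0.54, adjusted p = 4.06e-05) and 5.15-fold higher in ES_HLC than in Ad_Hep (2.36 ± 0.58, adjusted p = 0.00591). The last of these was 1.56 without ES_HLC replicate 1 (adjusted p = 0.0104). The fall in ES_HLC against mESC was -1.70 ± 0.54 (adjusted p = 0.0323), close to the threshold. Its size rested on ES_HLC replicate 3, without which it was -0.93 (adjusted p = 0.131). Without ES_HLC replicate 2 (-1.66, adjusted p = 0.0856) or mESC replicate 1, 2, 3 or 4 (-1.72, -1.68, -1.69 and -1.71, adjusted p of 0.0560 to 0.0650) the size was nearly the same but the call was lost. Markers of stellate cells and fibroblasts ran in the same order over the ES_HLC arrays (9.41, 8.59 and 7.84), and their part in the Sfrp1 values was not tested.

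Notum is a secreted deacylase that inactivates Wnt proteins by removing their lipid. It was high in both mESC and Ad_Hep and low in ES_HLC. The arrays read 7.96, 7.72, 8.55 and 7.63 in mESC, 7.81, 8.04 and 7.80 in Ad_Hep and 5.24, 5.85 and 6.95 in ES_HLC. All ES_HLC arrays were below all others, and replicate 3 was the closest to them. Among the ES_HLC arrays that replicate had the highest means of both the hepatocyte and the pluripotency markers, whose part in the Notum values was not tested. Notum fell by 1.95 ± 0.34 in ES_HLC against mESC, 3.87-fold (adjusted p = 7.41e-04), and was 3.66-fold lower than in Ad_Hep (-1.87 ± 0.36, adjusted p = 0.00113). Without ES_HLC replicate 3 these were -2.42 (adjusted p = 3.96e-05) and -2.34 (adjusted p = 4.00e-05). Ad_Hep and mESC overlapped (-0.08 ± 0.34, adjusted p = 0.877, 95% interval -0.81 to 0.65). A dimmer second Notum cluster also fell in ES_HLC against mESC (-1.32, adjusted p = 3.24e-04), but gave -0.55 against Ad_Hep (adjusted p = 0.0664) and -0.77 for Ad_Hep against mESC (adjusted p = 0.00818).

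Lef1 is one of the TCF/LEF factors through which beta-catenin acts and is also a target of the pathway. It read 8.06, 8.01 and 7.75 in ES_HLC, 7.09, 6.78, 6.77 and 6.64 in mESC and 5.28, 5.92 and 5.54 in Ad_Hep. The 3 kinds did not overlap, in the order ES_HLC, mESC, Ad_Hep. Lef1 rose by 1.12 ± 0.18 in ES_HLC against mESC, 2.18-fold (adjusted p = 5.20e-04), and was lower in Ad_Hep than in mESC by a similar amount (-1.24 ± 0.18, adjusted p = 1.03e-04). ES_HLC was 5.14-fold above Ad_Hep (2.36 ± 0.20, adjusted p = 7.66e-07). Under cyclic loess the Ad_Hep difference from mESC was -0.95 (adjusted p = 0.00196) and no longer called. Lef1 is also abundant in T cells. Of 8 measured T cell markers 0 had a mean of at least 5.5 in ES_HLC and in Ad_Hep. In mESC 4 did, the highest being Cd3e at 7.29. The other 4 were dim there: Ptprc (3.28), Il7r (2.78), Cd8a (4.37) and Cd28 (4.54). Of the 8 markers 4 were called lower in ES_HLC than in mESC. The part of T cell transcripts in the Lef1 values was not tested.

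**Figure D2:**
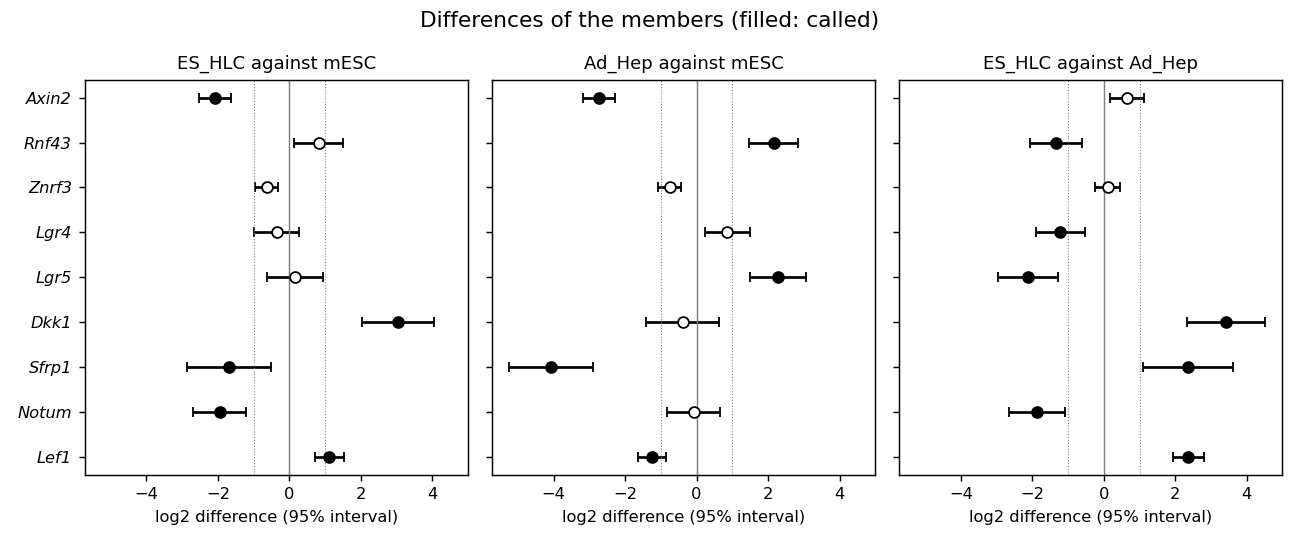
Log2 difference of each member (horizontal axis, in log2 units) in the 3 comparisons, with 95% intervals from the fit. Filled points were called and dotted lines mark a difference of 1 either way. Dkk1 and Lef1 are filled to the right in both comparisons of ES_HLC, Notum to the left in both, and Znrf3 is open in all 3.

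By cell kind, mESC had the highest Axin2 and Sfrp1 and low Dkk1, Rnf43 and Lgr5. ES_HLC had the highest Dkk1 and Lef1 and the lowest Notum. Ad_Hep had the highest Rnf43 and Lgr5, and its Lef1 and Sfrp1 were the lowest. Members were called in both directions in each comparison: Axin2 and Notum fell in ES_HLC against mESC while Dkk1 and Lef1 rose.

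The genes with the most similar profiles were sought for the 7 members called in at least 2 comparisons, as the smallest root mean square distance over the 10 arrays between profiles centred on their own means, among 18197 protein-coding genes. Lef1 was closest to Niban2 (0.19 in log2 units) and Abcc1 (0.20), and Axin2 to Rtel1 (0.21) and Pcgf6 (0.22). Lgr5 was closest to Sult1e1 (0.19), whose level was dim in all 3 kinds, and Neb (0.26), and Rnf43 to Plpp6 (0.24) and Adcy9 (0.26). Notum was closest to Frrs1 (0.30) and Mindy1 (0.33). Dkk1 and Sfrp1, whose ES_HLC arrays were spread, had no near match, the closest being Gpr50 (0.51) and Flrt3 (0.55) for Dkk1 and Gli2 (0.56) and Aurkb (0.65) for Sfrp1. The 10 points of each profile fall into 3 groups of arrays and are not independent.

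The ligands were compared next. For this and the later lists, the shares of all genes called higher and lower were 8.61% and 7.35% in ES_HLC against mESC. They were 11.0% and 15.6% in Ad_Hep against mESC, and 13.9% and 9.12% in ES_HLC against Ad_Hep. Nothing particular to a list is read from its counts. Of 19 Wnt genes 5 rose and 0 fell in ES_HLC against mESC, with a median difference of 0.36. Wnt4 rose by 2.04 ± 0.36 (adjusted p = 7.84e-04), Wnt5a by 1.84 ± 0.25 (adjusted p = 1.31e-04) and Wnt3 by 1.71 ± 0.49 (adjusted p = 0.0184). Wnt3 rested on replicate 3, since its ES_HLC arrays read 5.11, 5.09 and 7.67 and its difference without that replicate was 0.85, which is not called. Wnt4 and Wnt5a were above all mESC and Ad_Hep arrays on each ES_HLC array. Against Ad_Hep 3 of 19 were higher in ES_HLC and 0 lower, Wnt4 (2.06 ± 0.38), Wnt9a (1.48 ± 0.26) and Wnt5a (1.47 ± 0.27). Between Ad_Hep and mESC limma called 0 of 19, and 14 of 19 in mESC and 12 of 19 in Ad_Hep had a mean under 5.5.

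Wls, the transporter that carries Wnt proteins to the cell surface, rose more than any ligand. It read 9.69, 10.24 and 10.22 in ES_HLC, 5.91, 7.23, 6.45 and 7.17 in mESC and 5.56, 5.06 and 5.01 in Ad_Hep. The 3 kinds did not overlap, and the rise was 3.36 ± 0.30 over mESC (adjusted p = 3.82e-06) and 4.84 ± 0.32 over Ad_Hep (adjusted p = 7.57e-08). In its list of 6 genes for R-spondins and Wnt secretion, 2 rose and 1 fell in ES_HLC against mESC. Rspo3 rose by 1.86 ± 0.30 (adjusted p = 4.85e-04), and Porcn, which attaches the lipid to Wnt proteins, fell by 1.03 ± 0.34 (adjusted p = 0.0371). The Porcn call was lost without ES_HLC replicate 1, 2 or 3 (adjusted p = 0.103, 0.0634 and 0.0783), without mESC replicate 2 or 4 (adjusted p = 0.102 for each) and without Ad_Hep replicate 2 (adjusted p = 0.0521). Between Ad_Hep and mESC, Porcn (-1.49 ± 0.34, adjusted p = 0.00285) and Wls (-1.48 ± 0.30, adjusted p = 0.00126) were lower and Rspo3 was just past the threshold (1.0 ± 0.30, adjusted p = 0.0173). Without Ad_Hep replicate 1 or mESC replicate 2 Rspo3 was not called, at 0.85 and 0.93, nor with arrays centred on the median, at 0.98.

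Among the 14 other extracellular inhibitors 2 rose and 0 fell in ES_HLC against mESC, where 16.0% of all genes were called in either direction. Without ES_HLC replicate 1, 1 of the inhibitors fell. Dkk2, a relative of Dkk1, rose by 2.61 ± 0.48 (adjusted p = 0.00116), with ES_HLC arrays at 9.17, 6.67 and 6.62 against at most 5.03 elsewhere. Frzb, a Frizzled-related protein, rose by 2.95 ± 0.82 (adjusted p = 0.0154), with ES_HLC arrays at 9.65, 5.39 and 4.90. Both were highest on replicate 1, and without it Frzb rose by 1.45 over mESC (adjusted p = 2e-04) and was not called against Ad_Hep (0.92). That replicate also had the highest mean of the stellate and fibroblast markers, whose part was not tested. Against Ad_Hep 4 of 14 were higher and 0 lower, including Dkk2 (2.79 ± 0.52), Frzb (2.42 ± 0.87, adjusted p = 0.0464) and Apcdd1 (1.74 ± 0.36). The Frzb call was also lost without any 1 of the 7 mESC or Ad_Hep arrays. Between Ad_Hep and mESC 2 fell, Apcdd1 (-2.11 ± 0.33, adjusted p = 1.77e-04) and Sfrp2 (-1.36 ± 0.49, adjusted p = 0.0405), the latter lost under quantile scaling (adjusted p = 0.0874) and cyclic loess (adjusted p = 0.111) and without Ad_Hep replicate 1 or 3 or any 1 mESC array (adjusted p of 0.0537 to 0.16).

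**Figure D3:**
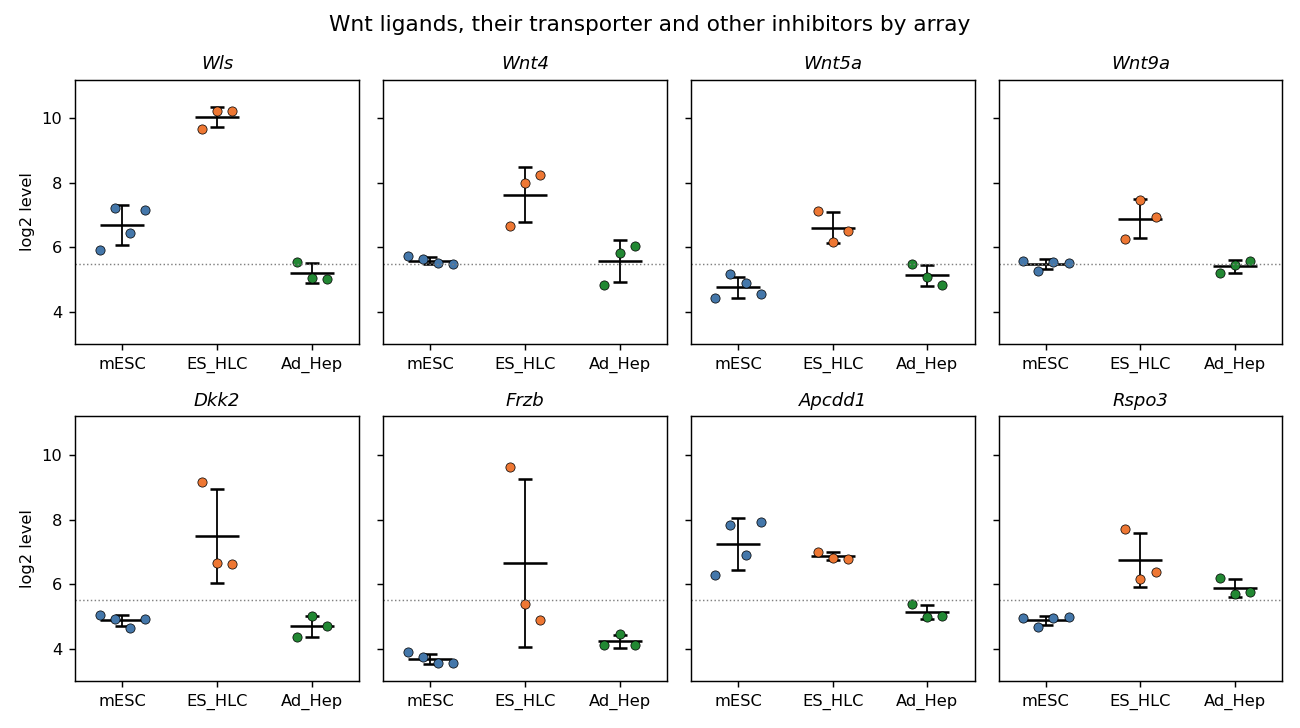
Log2 level (vertical axis) of Wls, 3 Wnt ligands, 3 other inhibitors and Rspo3 on each array, drawn as points with the group mean as a bar and the SD as whiskers. The dotted line marks 5.5. Wls, Wnt4, Wnt5a and Wnt9a are higher on all 3 ES_HLC arrays than on any other, and Frzb reaches 9.65 on 1 of them.

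Receptors were changed in both directions. Of 16 Frizzled genes, co-receptors and related receptors 5 rose and 2 fell in ES_HLC against mESC, led by Fzd10 (-2.35 ± 0.29, adjusted p = 6.40e-05), Ror1 (2.13 ± 0.19, adjusted p = 3.22e-06) and Fzd5 (-1.97 ± 0.27, adjusted p = 1.25e-04). In Ad_Hep against mESC 4 were higher and 5 lower, led by Fzd10 (-2.68 ± 0.29), Fzd4 (2.65 ± 0.34) and Fzd8 (2.0 ± 0.29), but 5 were higher and 4 lower under cyclic loess. ES_HLC against Ad_Hep had 5 higher and 2 lower, with Fzd6 (2.79 ± 0.23), Fzd3 (2.36 ± 0.20) and Fzd2 (2.35 ± 0.38) at the front. In the cytoplasm, 4 of 15 transducers and destruction complex genes rose and 2 fell in ES_HLC against mESC. Dvl2 (-1.16 ± 0.23), Amer1 (1.16 ± 0.28) and Btrc (-1.08 ± 0.16) led, all near the minimum difference. With arrays centred on the median 1 rose and 2 fell, and without ES_HLC replicate 2, when Dvl2 and Btrc were at -0.95 and -0.98, 1 rose and 0 fell. Without ES_HLC replicate 1, when Amer1 was at 0.79 and not called, 2 rose and 2 fell. In Ad_Hep against mESC 1 rose, Dvl1 (1.3 ± 0.22), and 5 fell, including Dvl2 (-2.40 ± 0.23) and Csnk1e (-1.80 ± 0.23), with 2 lower under cyclic loess and 3 after quantile scaling. ES_HLC against Ad_Hep had 7 higher and 1 lower, led by Csnk1e (2.85 ± 0.25), Tnks (2.03 ± 0.16) and Tnks2 (1.59 ± 0.18), the tankyrases that mark axin for degradation, but 3 higher and 1 lower under cyclic loess.

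The nuclear partners of beta-catenin included Tcf7l1 and Tcf7l2 of the TCF/LEF family, while Tcf7 was not measured. Tcf7l1, known in embryonic stem cells as a repressor of Wnt targets, read 9.54, 10.37, 9.81 and 10.36 in mESC, 8.69, 7.61 and 8.39 in ES_HLC and 6.14, 6.42 and 6.06 in Ad_Hep. It fell by 1.79 ± 0.27 in ES_HLC (adjusted p = 2.77e-04) and by 3.81 ± 0.27 in Ad_Hep (adjusted p = 1.25e-07) against mESC, so its order differed from that of Lef1. Tcf7l2, added here as the remaining measured family member after its values were seen, rose by 1.25 ± 0.15 in ES_HLC against mESC and was at 7.42 to 7.52 in Ad_Hep and 7.55 to 7.67 in ES_HLC. The co-repressor Tle4 fell by 1.79 ± 0.17 in ES_HLC against mESC, and the co-activator Bcl9l rose by 1.42 ± 0.22. In all, 2 of 13 rose and 2 fell in that comparison. In Ad_Hep against mESC 1 rose and 5 fell, with Ctbp2 (-2.62 ± 0.18) and Tle3 (-2.45 ± 0.24) after Tcf7l1, but 3 rose under cyclic loess and after quantile scaling. ES_HLC against Ad_Hep had 5 higher and 1 lower, led by Tcf7l1 (2.02 ± 0.29), Tle3 (2.0 ± 0.25) and Ctbp2 (1.97 ± 0.19).

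Other known Wnt target genes were called in both directions. Of 16 measured, 4 rose and 3 fell in ES_HLC against mESC, with a median of -0.21. The adhesion receptor Cd44 rose by 4.83 ± 0.28 (adjusted p = 8.97e-08) and the transcription factor Sox4 by 3.53 ± 0.22 (adjusted p = 1.66e-07), while the caudal homeobox gene Cdx1 fell by 2.67 ± 0.40 (adjusted p = 2.74e-04). With arrays centred on the median or without ES_HLC replicate 1, 5 fell, and under cyclic loess or without ES_HLC replicate 2, 2 fell. In Ad_Hep against mESC 1 rose and 6 fell, led by Tbx3 (-2.44 ± 0.27), Sp5 (-2.16 ± 0.34) and Cdx1 (-2.08 ± 0.40). ES_HLC against Ad_Hep had 6 higher and 0 lower, with Sox4 (5.15 ± 0.23), Cd44 (4.26 ± 0.29) and Bambi (2.57 ± 0.21) in front.

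**Figure D4:**
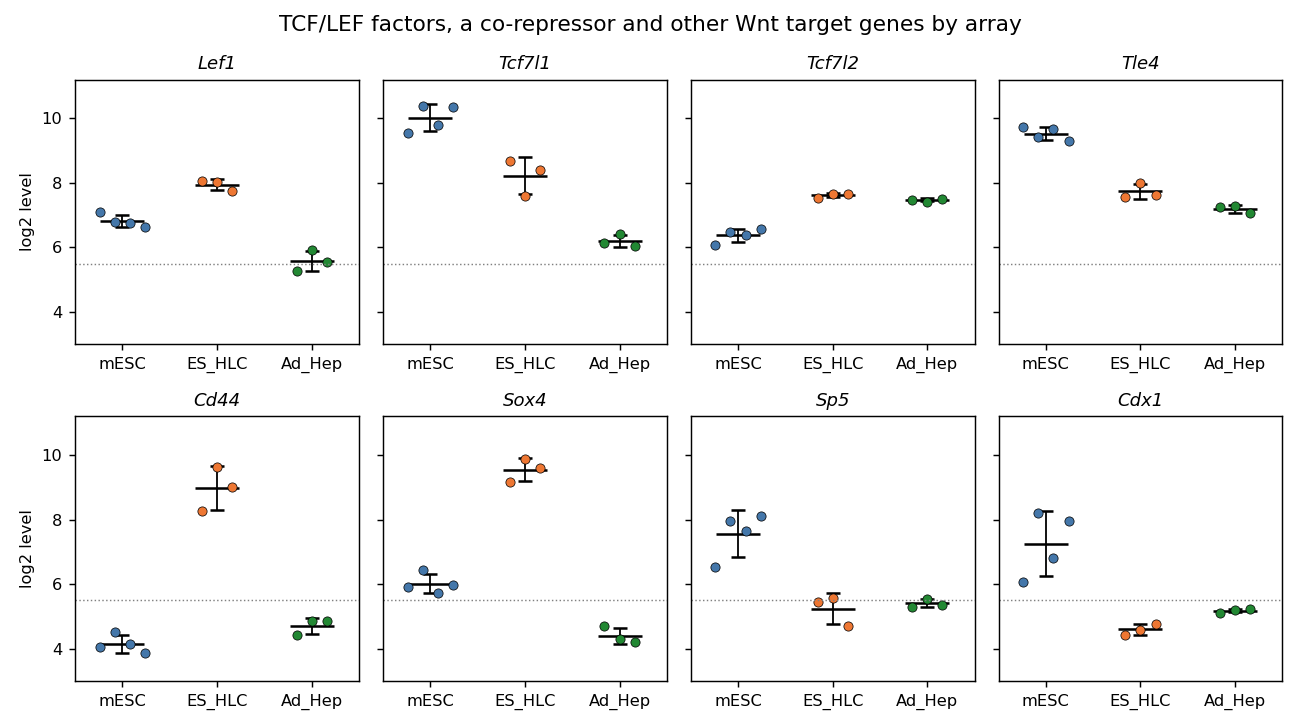
Log2 level (vertical axis) of 3 TCF/LEF factors, the co-repressor Tle4 and 4 other Wnt target genes on each array, with the group mean as a bar, the SD as whiskers and 5.5 as a dotted line. Lef1 is highest in ES_HLC while Tcf7l1 is highest in mESC, Cd44 and Sox4 are highest in ES_HLC, and Sp5 and Cdx1 in mESC.

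Hepatocyte genes that depend on beta-catenin around the central vein were taken as the liver targets of the pathway. Of 14 measured, 13 were higher in Ad_Hep than in mESC and 0 lower (median 3.71), led by Cyp2e1 (8.08 ± 0.31), Cyp1a2 (7.09 ± 0.17) and Lect2 (6.19 ± 0.24). Against Ad_Hep 12 of 14 were lower in ES_HLC and 0 higher (median -3.71), led by Cyp2e1 (-7.33 ± 0.33), Cyp1a2 (-6.88 ± 0.18) and Gulo (-6.76 ± 0.15). In ES_HLC against mESC 2 rose, Glul (1.44 ± 0.26, adjusted p = 0.00106) and Ahr (1.21 ± 0.28, adjusted p = 0.00514), and 1 fell, the ammonium transporter Rhbg (-2.18 ± 0.29). Glul was 0.62 with its clusters averaged (adjusted p = 0.16) and Ahr 0.89 without ES_HLC replicate 2, and neither was then called. Periportal genes, which lie at the other end of the liver lobule, were likewise higher in Ad_Hep than in mESC in 7 of 9 (1 lower, median 5.34). In ES_HLC against Ad_Hep 7 of 9 periportal genes were lower and 1 higher (median -6.44), and all 12 hepatocyte markers were lower (median -6.84), so the lower levels in ES_HLC were not limited to pericentral genes. In Ad_Hep, Lgr5 was highest on replicate 1, as were 8 of 14 pericentral and 5 of 9 periportal genes. The share of all genes highest on that array was not counted, so nothing is read from these 2 counts. Among the pericentral genes Avpr1a, singled out after its values were seen, read 9.93 against 8.53 and 8.52. Others went the opposite way: Cyp1a2 (11.58 against 11.75 and 11.77), Rhbg, Slc13a3, Gulo and Nr1i3 were lowest on replicate 1.

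**Figure D5:**
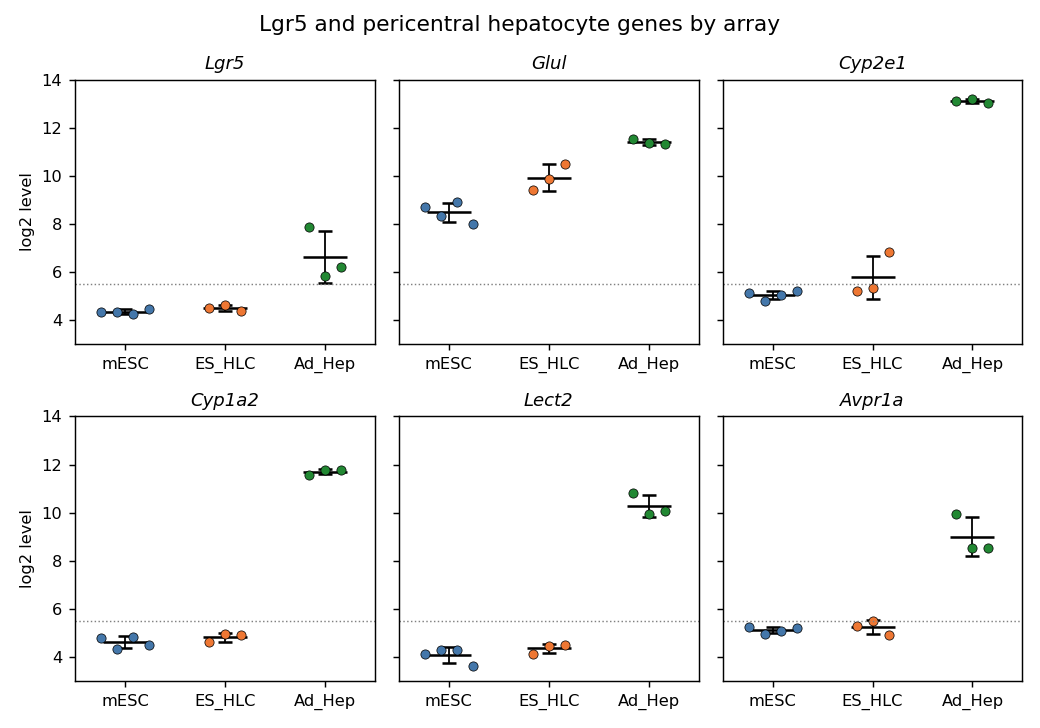
Log2 level (vertical axis) of Lgr5 and 5 pericentral hepatocyte genes on each array, with the group mean as a bar, the SD as whiskers and 5.5 as a dotted line. All 6 genes are highest in Ad_Hep. Lgr5 (7.88) and Avpr1a (9.93) are highest on its replicate 1, while Cyp1a2 (11.58) is lowest there.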

How the data were processed

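The deposited table holds log2 expression values of 41345 transcript clusters on 10 arrays and was used as the authors made it. Transcriptome Analysis Console, R 3.3.1, oligo 1.38.0 and RMA are listed in the submitters' processing notes, with no role for any of them. The genome build is not given in the sources used here. The log2 scale was inferred from the range of the deposited values, 1.27 to 13.58, and the medians of the arrays lay between 4.91 and 5.07. No detection call was available per probe here, and precision is limited by how many arrays there are.

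Groups came from the sample titles. In the annotation 23521 clusters had exactly 1 gene symbol, 1814 had several and 16010 had none. The first of these gave 22180 genes, all tested, without a filter on low values. limma 3.58.1 in R 4.3.3 (lmFit, eBayes, 2-sided) fitted a mean for each of the 3 groups to all arrays together, with 7 residual degrees of freedom and a prior of 5.34. Data were simulated with independent normal noise, 1 spread per gene for all groups and no differences but those added. In ES_HLC against mESC, Ad_Hep against mESC and ES_HLC against Ad_Hep, 91%, 83% and 82% of 100 genes shifted by 1.5 were called. There were 6, 5 and 6 false calls among the unshifted of the 22180 genes. On the real arrays the spread differed between groups, the SD of Sfrp1 being 0.05 in mESC and 1.57 in ES_HLC. These figures therefore do not give the error rates on the real arrays. No 2 arrays held the same values (highest Pearson r over genes 0.990).

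The members, lists, thresholds and alternatives were chosen with earlier results of these data known. Every member is named, and from each other list up to 3 called genes per comparison in order of their difference. Likeness was restricted to protein-coding genes without clone names or predicted models. The alternatives were 3 other scalings, a filter on dim genes, averaged or other clusters, array weights, a robust trended variance, a fit to just the compared groups, a block for the replicate number, other thresholds and each array left out. List counts without ES_HLC replicate 3 were added after seeing the data. Promoter windows are RefSeq's (GRCm38.p6), for 6 of the 10 listed genes. Plots used matplotlib 3.10.9 (Python 3.11.15).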

Additional observations from a re-analysis of the deposited data

How the results depend on the processing

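Of the 27 member differences, 20 kept their direction or their uncalled state and their side of the threshold under all 21 alternatives other than another cluster, and 0 called differences changed sign. The exceptions were Sfrp1, Znrf3 and Rnf43 in ES_HLC against mESC, Lgr4, Lef1 and Znrf3 in Ad_Hep against mESC and Axin2 in ES_HLC against Ad_Hep. On their second clusters the Axin2 and Lgr5 calls, and the Notum call in ES_HLC against Ad_Hep, were not kept. With no minimum difference 6390, 9205 and 8003 genes were called in ES_HLC against mESC, Ad_Hep against mESC and ES_HLC against Ad_Hep, in place of 3540, 5893 and 5106, because fewer conditions had to be met. With each array left out in turn these counts were 3349 to 3719, 5797 to 6010 and 4933 to 5272. The members called were then 2 to 3 higher and 2 to 3 lower, 2 to 3 higher and 3 lower, and 3 higher and 4 lower. The labels do not say whether the replicate numbers pair the samples. Deviations from the group means correlated at -0.18 to 0.14 between arrays of 1 number. This cannot decide the question, because arrays of different numbers were not compared in the same way. With the replicate number as a block 3518, 5926 and 5103 genes were called, the members higher were 2, 2 and 3 and those lower 2, 3 and 4, Sfrp1 being lost in ES_HLC against mESC (-1.71, adjusted p = 0.0782). Sfrp1 was lost there too under cyclic loess (adjusted p = 0.0582) and with only the groups compared (adjusted p = 0.0505), and the cause was not tested. Without ES_HLC replicate 3 the R-spondin and secretion list had 0 lower against mESC in place of 1 and 2 higher against Ad_Hep in place of 1, and 1 pericentral gene was higher than in Ad_Hep in place of 0.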

Other observations

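In mESC, replicates 1 and 3 both lay above or both below replicates 2 and 4 in 11483 of the 22180 genes tested (51.8%). These counts include genes that would split this way with the arrays in random order, so a single gene with the split shows little. The split was noticed in the values and is not one of Wnt genes: it was found in 107 of the 211 genes on all the lists and marker lists (50.7%) and in 4 of the 9 members, Lgr4, Rnf43, Notum and Lgr5, the last of them dim. Lgr4 read 9.41 and 9.21 on replicates 1 and 3 against 8.30 and 8.30 on 2 and 4, and Notum 7.96 and 8.55 against 7.72 and 7.63. Rnf43 was the other way round, at 5.22 and 5.49 against 6.20 and 5.91. Among other genes, singled out with their values known, the pluripotency marker Tdgf1 read 11.54 and 11.43 against 10.5 and 10.62, and the homeobox gene Cdx1 6.06 and 6.81 against 8.21 and 7.95. The labels give no difference between the mESC replicates.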
